A study of Mus musculus with 8 samples.

Results

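Genes of the oligodendrocyte lineage and of myelin were compared between hippocampi of the mouse strains BTBR and B6. They were 31 genes fixed by name, and every non-control probe carrying one of these names was taken, which gave 56 of the 41174 probes and 31 of the 27373 gene names on the array. By their textbook roles the members were divided into 4 genes of precursors and newly formed cells (Pdgfra, Cspg4, Gpr17 and Bcas1), 5 transcription factors (Olig1, Olig2, Sox10, Nkx6-2 and Myrf) and 22 genes of myelin and mature cells. The last group held 10 myelin proteins (Mbp, Mog, Mag, Mobp, Cnp, Cldn11, Mal, Opalin, Ermn and Tspan2), 3 lipid and metabolic enzymes (Ugt8a, Fa2h and Aspa), 2 gap junction proteins (Gjc3 and Gjb1) and 7 other genes that oligodendrocytes express (Trf, Car2, Cryab, Enpp2, Ninj2, Sirt2 and Evi2a).

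Whole hippocampus was compared between 4 mice labeled BTBR T+ Itpr3tf/J and 4 C57BL/6J mice labeled wild type (B6), all male and 5 months old, housed without drug treatment, with 1 mouse on each single-color Agilent array. BTBR is an inbred strain used as a model of autism spectrum disorders, and B6 is another inbred strain rather than a littermate control. In the labels the strain background of the BTBR samples also reads C57BL/6J, while their titles, source names and genotype read BTBR. Replicates 1 and 2 of each strain were hybridized on slide 1 and replicates 3 and 4 on slide 2, which gave a comparison within each slide. Levels are normalized log2 intensities, and differences are BTBR minus B6 on the log2 scale, where 1 is a doubling. Because the tissue is bulk hippocampus, a change in the number of oligodendrocytes and a change in RNA per cell cannot be told apart.

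Oligodendrocytes arise from dividing precursor cells that carry the growth factor receptor PDGFRA and the proteoglycan NG2, the product of Cspg4. The factors OLIG1, OLIG2 and SOX10 define the lineage, and MYRF switches on the genes of the myelin sheath as the cells mature. Mature cells wrap axons in a membrane rich in galactolipids and in a small number of abundant proteins, of which myelin basic protein is the best known. In the hippocampus the myelinated fibers lie mainly in the alveus, the fimbria and the layers the perforant path runs through. BTBR mice are known to lack the corpus callosum, a myelinated tract that lies next to the dorsal hippocampus.

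Signal was high for most members. A probe was tested when, in BTBR or in B6 mice, 75% or more of the arrays had it well above background by the flag of the scanner software, which kept 50 of the 56 member probes and all 31 genes, of 27981 probes and 18398 gene names tested on the array. The flag was set on all 8 arrays for 47 of the 50 member probes, and none was saturated. The 6 probes that were not tested were additional probes of Pdgfra, Cspg4, Olig2, Myrf, Ugt8a and Enpp2, and each was well above background on at most 2 of 4 arrays of a strain. Myrf was the dimmest member, with both tested probes close to 8 on the log2 scale and 3 of 4 arrays per strain well above background at the brighter one. Where a gene is given by a single value below, it is the tested probe with the highest mean over the 8 arrays. Over the whole array, 56.9% to 71.9% of probes carried the flag in B6 and 61.8% to 71.5% in BTBR mice. With 4 arrays per strain, their number sets the precision.

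Across the 4 BTBR and 4 B6 mice, no member passed the limma test, in which each difference is set against the spread between mice. Limma called 0 of the 50 member probes at an adjusted p under 0.05, whereas it called 7.61% of all tested probes (3.31% higher and 4.3% lower). The smallest adjusted p was 0.09, and 4 member probes had an unadjusted p under 0.05, at Bcas1 (both probes), Mobp and Mbp, against 18.5% of all probes. The rank product, the test used for the published comparison, called 1 member probe higher in BTBR at a pfp (percentage of false prediction) of 0.05 or less, a Mobp probe with a pfp of 0.047. The count was 0 without any one of B6 replicates 2, 3 and 4 and BTBR replicates 1, 2 and 3, and with the processed signal, median centring or the median over probes. The rank product called 1.65% of all probes in that direction and 3.95% in either. Without BTBR replicate 4 limma called 3 member probes, both of Bcas1 (0.88 and 0.87, adjusted p = 0.019 and 0.044) and the same Mobp probe (0.93, adjusted p = 0.027), and without BTBR replicate 2 it called a Mbp probe (-0.63, adjusted p = 0.047). Most members were nevertheless slightly higher in BTBR, 24 of 31 genes by their brightest probe, against 52.9% of all tested genes, with a median difference of 0.13 where the median of all tested genes was 0.01. The median was 0.08 for the 4 precursor genes, 0.11 for the 5 transcription factors and 0.13 for the 22 genes of myelin and mature cells. With median centring it was 0.03, 0.04 and 0.06 in this order. Without BTBR replicate 2 it was -0.04 for the genes of myelin and mature cells and 0.00 for the transcription factors, and 15 of the 31 genes changed sign with 1 array left out.

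**Figure D1:**
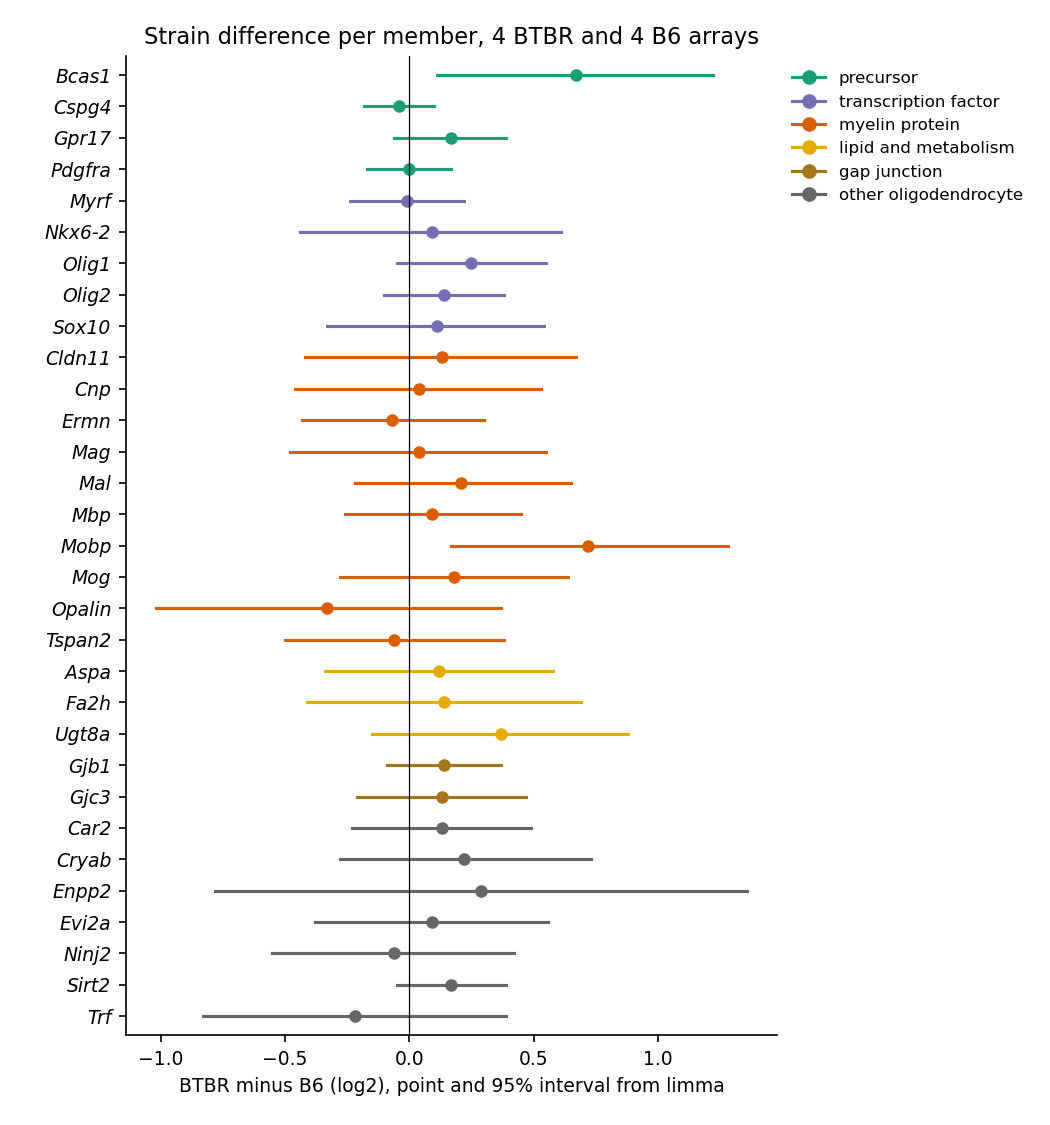
Strain difference of each of the 31 members at its brightest probe, BTBR minus B6 on the log2 scale (horizontal axis), with the 95% interval from limma over 4 BTBR and 4 B6 arrays, colored by role. The intervals of Bcas1 and Mobp alone lie above 0, those of Pdgfra and Cspg4 are among the narrowest, and no difference passed the threshold after adjustment over all probes.

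The precursor genes Pdgfra and Cspg4 were level between the strains. Pdgfra, the receptor that drives precursor division, measured 11.79, 11.90, 11.88 and 11.73 in B6 replicates 1 to 4 and 11.88, 11.89, 11.67 and 11.87 in the BTBR replicates in the same order. The arrays of the strains overlapped throughout, and the difference was 0.00 with a 95% interval from -0.17 to 0.17 (limma adjusted p = 1.0). Cspg4 measured 11.34, 11.42, 11.38 and 11.41 in B6 and 11.47, 11.33, 11.30 and 11.30 in BTBR mice. The difference was -0.04 (95% interval from -0.18 to 0.10, limma adjusted p = 0.82), and a second Cspg4 probe gave -0.11 (limma adjusted p = 0.52).

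Gpr17, a receptor that marks cells between the precursor and the myelinating stage, measured 13.06, 13.16, 13.34 and 13.52 in B6 and 13.42, 13.42, 13.47 and 13.42 in BTBR mice. The 4 BTBR arrays lay within the upper part of the B6 range, and the difference of 0.17 was within the spread (standard error 0.10, limma adjusted p = 0.43). Its dimmer probe gave -0.06. Bcas1, a gene of newly formed and myelinating oligodendrocytes, stood apart from the other 3 genes. At its brighter probe Bcas1 measured 14.87, 14.49, 14.74 and 14.41 in B6 and 15.50, 15.93, 15.06 and 14.69 in BTBR mice, so that 3 of 4 BTBR arrays were above every B6 array and BTBR replicate 4 lay among the B6 arrays. The difference was 0.67 (standard error 0.24, limma adjusted p = 0.17), a ratio of 1.59. The other Bcas1 probe gave 0.69 (standard error 0.22, limma adjusted p = 0.11). Without Bcas1, the median difference of the precursor genes was 0.00.

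Among the transcription factors, Olig1 had the largest difference. It measured 14.20, 14.03, 14.04 and 13.94 in B6 and 14.55, 14.52, 14.11 and 14.03 in BTBR mice, a difference of 0.25 (standard error 0.13, limma adjusted p = 0.36). BTBR replicates 1 and 2 were above all B6 arrays, and BTBR replicates 3 and 4 were among them. Olig2 measured 10.291, 10.133, 10.004 and 10.121 in B6 and 10.269, 10.548, 10.218 and 10.072 in BTBR mice, with a difference of 0.14 (standard error 0.11, limma adjusted p = 0.57). Sox10, which keeps cells in the lineage and acts on myelin genes, split the BTBR mice into a high pair and a low pair. It measured 13.16, 13.02, 13.25 and 13.17 in B6, with 13.70 and 13.56 in BTBR replicates 1 and 2 and 12.86 and 12.89 in BTBR replicates 3 and 4, which left a difference of 0.11 (standard error 0.19, limma adjusted p = 0.83). The second Sox10 probe had the same order, with 9.03 and 8.89 against 8.62 and 8.58 in the BTBR mice and a difference of 0.10. Nkx6-2 and Myrf differed by 0.09 and -0.01 (limma adjusted p = 0.89 and 0.97).

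The myelin protein genes varied far more among the BTBR mice than among the B6 mice. Mbp, which encodes myelin basic protein, measured 16.78, 16.59, 16.72 and 16.70 in B6 and 16.99, 17.14, 16.69 and 16.35 in BTBR mice at its brightest probe. The BTBR values enclosed the B6 range on both sides, with an SD of 0.35 against 0.08 (n = 4 each) and a difference of 0.09 (limma adjusted p = 0.82). Mog, a glycoprotein of the outer myelin surface, measured 10.61, 10.37, 10.35 and 10.37 in B6 and 10.87, 11.08, 10.43 and 10.06 in BTBR mice, a difference of 0.18 (limma adjusted p = 0.71). Mag, an adhesion molecule at the contact of myelin and axon, measured 16.35, 16.13, 16.11 and 16.21 in B6 and 16.60, 16.76, 15.96 and 15.64 in BTBR mice, a difference of 0.04 (limma adjusted p = 0.96). In these genes BTBR replicate 2 was the highest and BTBR replicate 4 the lowest of the 8 arrays. Cnp, an enzyme of non-compact myelin, repeated the pattern with 14.83, 14.70, 14.67 and 14.65 in B6 and 15.09, 15.24, 14.49 and 14.16 in BTBR mice, and differed by 0.04 (limma adjusted p = 0.95).

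The same order ran through the remaining myelin proteins. Differences were 0.21 for Mal, 0.13 for Cldn11, the claudin of myelin tight junctions, -0.06 for Tspan2, -0.07 for Ermn and -0.33 for Opalin, with limma adjusted p between 0.64 and 0.91. BTBR replicate 2 was the highest array for all 10 myelin protein genes and BTBR replicate 4 the lowest for 8 of them. Opalin was lowest in BTBR replicate 3 instead, at 9.60, where no B6 array was below 10.59. Over all 31 members, BTBR replicate 2 was the highest array for 24 genes (77.4%, against 19.1% of all tested genes) and BTBR replicate 4 the lowest for 18 genes (58.1%, against 7.97%). The SD among BTBR mice exceeded that among B6 mice for 30 of 31 members, where 69.1% of all tested genes had the larger SD in BTBR. Median SDs over the members were 0.12 in B6 and 0.44 in BTBR mice, and over all tested genes they were 0.11 and 0.14.

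**Figure D2:**
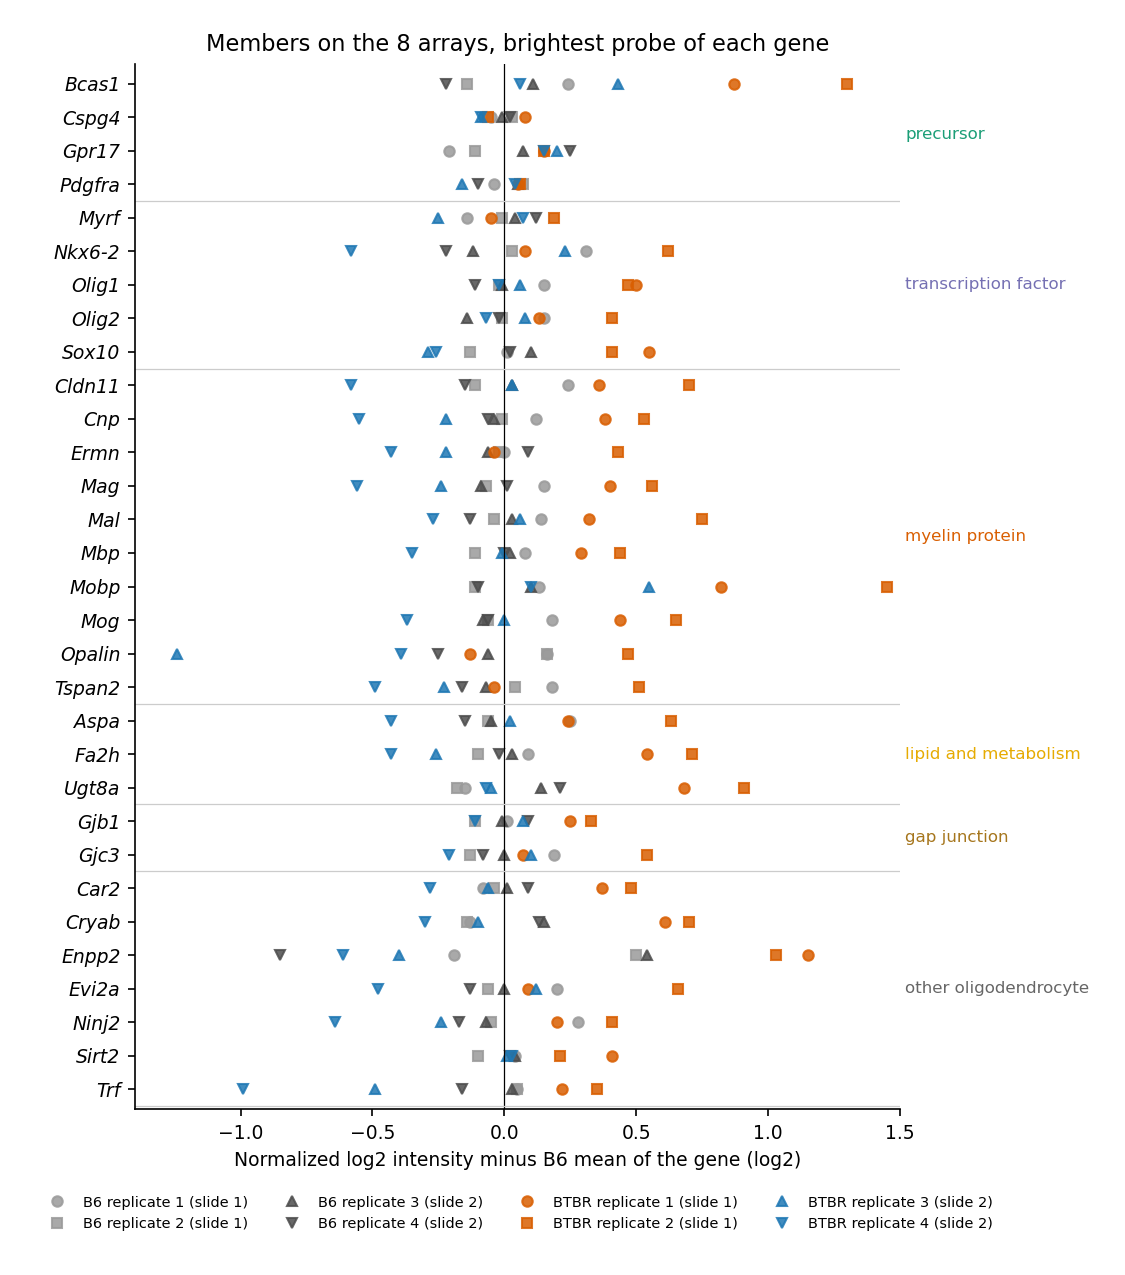
Value of each of the 31 members on each array, as normalized log2 intensity minus the B6 mean of the gene (horizontal axis), with B6 arrays in gray, BTBR arrays of slide 1 in orange and BTBR arrays of slide 2 in blue. For most myelin genes the orange points lie to the right of the B6 points and the blue points at or to the left of them, whereas all 8 points of Pdgfra and Cspg4 lie close together.

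The enzymes of myelin lipids split the BTBR mice in the same way. Ugt8a, the transferase that makes the galactocerebroside of myelin, measured 11.79, 11.76, 12.08 and 12.15 in B6 and 12.62, 12.85, 11.89 and 11.87 in BTBR mice. Replicates 1 and 2 of BTBR were above all B6 arrays and replicates 3 and 4 within the B6 range, and the difference of 0.37 was within the spread (standard error 0.23, limma adjusted p = 0.46). Fa2h, which adds the hydroxyl group of myelin galactolipids, measured 12.68, 12.49, 12.62 and 12.57 in B6 and 13.13, 13.30, 12.33 and 12.16 in BTBR mice, a difference of 0.14 (limma adjusted p = 0.83). Here the slide 2 BTBR arrays were below every B6 array. Aspa, which splits N-acetylaspartate and supplies acetate for lipid synthesis, differed by 0.12 (limma adjusted p = 0.82). The gap junction genes Gjc3 and Gjb1, which encode connexins of oligodendrocytes, differed by 0.13 and 0.14 (limma adjusted p = 0.72 and 0.53).

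Of the other genes that oligodendrocytes express, Car2, the carbonic anhydrase of these cells, measured 15.18, 15.22, 15.27 and 15.35 in B6 and 15.63, 15.74, 15.20 and 14.98 in BTBR mice, a difference of 0.13 (limma adjusted p = 0.74). Cryab, a small heat shock protein, measured 14.84, 14.83, 15.12 and 15.10 in B6 and 15.58, 15.67, 14.87 and 14.67 in BTBR mice, a difference of 0.22 (limma adjusted p = 0.68). Both were above all B6 arrays in BTBR replicates 1 and 2 and below the B6 mean in replicates 3 and 4. Sirt2, Evi2a and Ninj2 differed by 0.17, 0.09 and -0.06. Trf, the iron carrier transferrin, was low in the slide 2 BTBR mice, at 13.89 and 13.39 where the B6 arrays lay between 14.22 and 14.43, and differed by -0.22 overall (limma adjusted p = 0.74).

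Enpp2, or autotaxin, is made by oligodendrocytes and in large amounts by the choroid plexus, and it varied among the B6 mice as well. It measured 15.70, 16.39, 16.43 and 15.04 in B6 and 17.04, 16.92, 15.49 and 15.28 in BTBR mice, with SDs of 0.66 and 0.93 (n = 4 each) and a difference of 0.29 (limma adjusted p = 0.81). Ttr, the defining transcript of choroid plexus, measured 11.88, 12.71, 12.53 and 10.42 in B6 and 13.49, 13.46, 10.98 and 11.31 in BTBR mice. Both genes were high in B6 replicates 2 and 3 and in BTBR replicates 1 and 2, an order that the myelin proteins did not have among the B6 mice. The part of choroid plexus in the Enpp2 values was not tested.

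Within slide 1, all 31 members were higher in BTBR by their brightest probe, with a median difference of 0.34 against 0.02 over all tested genes. Limma, with the spread pooled over the 8 arrays, called 12 member probes of 9 genes higher in BTBR and 0 lower on that slide, where 3.65% of all tested probes were called higher and 8.65% in either direction. By the brightest probe alone, 8 of 31 members were called higher, against 3.98% of all tested genes. The 9 genes were Bcas1, Olig1, Sox10, Mobp, Tspan2, Ugt8a, Fa2h, Car2 and Cryab. The largest of these differences were 1.12 at Mobp (limma adjusted p = 0.031), 1.04 at Bcas1 (adjusted p = 0.032), 0.96 at Ugt8a (adjusted p = 0.0020) and 0.79 at Cryab (adjusted p = 0.0042). Sox10 differed by 0.55 (limma adjusted p = 0.017), Fa2h by 0.63 (adjusted p = 0.020), Car2 by 0.49 (adjusted p = 0.032) and Olig1 by 0.42 (adjusted p = 0.040). Tspan2 was called at its second probe alone, by 0.55 (limma adjusted p = 0.025), where it measured 12.76, 12.59, 12.67 and 12.57 in B6 and 13.12, 13.33, 12.45 and 12.38 in BTBR mice. The slide 2 BTBR arrays were below every B6 array at this probe, and the slide 2 difference was -0.21. These calls rested on 2 arrays per strain, and the count fell to 3 without B6 replicate 1, 2 without B6 replicate 2, 4 without B6 replicate 3 or 4, 5 without BTBR replicate 1 and 3 without BTBR replicate 2. It was 5 when the processed signal of the scanner software was used instead.

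Within slide 2, the direction turned for most members. Limma called 0 of the 50 member probes, where it called 3.7% of all tested probes on that slide, and 10 member probes had an unadjusted p under 0.05, against 12.4% of all probes. The count of called member probes was 2 with median centring and 0 to 2 with 1 array left out. Of the 31 genes, 26 were lower in BTBR. The median difference was -0.17 over all members, -0.23 over the 22 genes of myelin and mature cells, -0.01 over the 4 precursor genes and 0.00 over the 5 transcription factors, against 0.00 over all tested genes. Trf had the lowest value, -0.68 (limma adjusted p = 0.088), followed by Opalin with -0.66 (adjusted p = 0.42). The 5 genes that were higher on both slides at their brightest probe were Bcas1, Mobp, Gpr17, Olig1 and Olig2. The other Mobp probes were lower in BTBR on slide 2, by -0.48 and -0.81, and the other Gpr17 probe was lower by -0.10. The change from higher on slide 1 to lower on slide 2 was found in 26 of 31 members (21 of the 22 genes of myelin and mature cells) and in 22.8% of all tested genes. For the difference between the slides itself, 24 of 50 member probes had an unadjusted p under 0.05 in limma, against 9.94% of all probes, and 0 passed after adjustment (smallest adjusted p 0.33), as no probe on the array did.

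**Figure D3:**
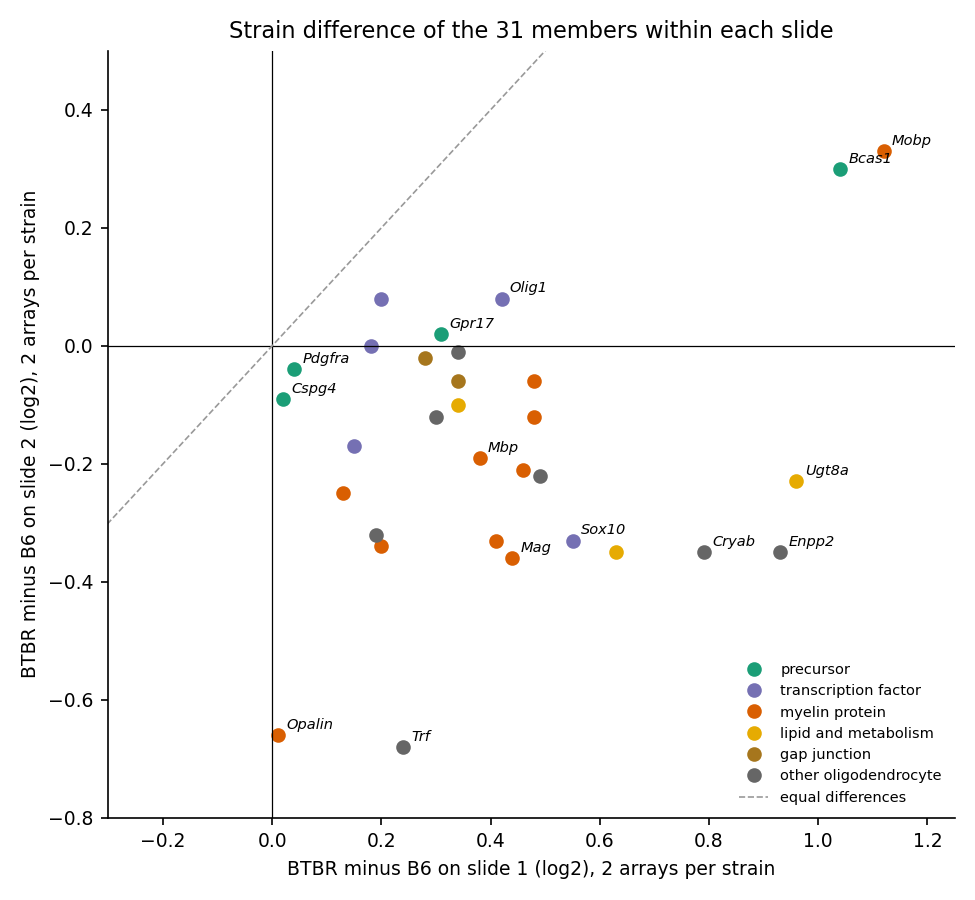
Strain difference of the 31 members within slide 1 (horizontal axis) and within slide 2 (vertical axis), BTBR minus B6 on the log2 scale with 2 arrays per strain on each slide, colored by role. All points lie to the right of 0 and 26 of them lie below 0, while Bcas1 and Mobp lie together at the upper right.

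The difference between slides lay in the BTBR mice. Both BTBR arrays of slide 1 were above both of slide 2 for 26 of 31 members, against 24.1% of all tested genes, and the median step from slide 2 to slide 1 was 0.64 in BTBR mice. In B6 mice the same order held for 8 of 31 members, against 17.2% of all tested genes, and the median step was 0.08. Summed over the 22 genes of myelin and mature cells, the intensity on the linear scale, divided by 1000, was 505, 493, 519 and 458 in B6 replicates 1 to 4. It was 689, 759, 453 and 370 in the BTBR replicates. These sums include Enpp2. Replicates 1 and 2 were above every B6 mouse and replicate 4 was below, while replicate 3 was close to the lowest B6 mouse. By the median deviation of the same genes, BTBR replicate 3 (-0.05) was not below B6 replicates 2 and 4 (-0.06 and -0.07). Median deviations from the B6 mean in BTBR replicates 1 to 4 were 0.34, 0.55, -0.05 and -0.41 for these genes, 0.13, 0.42, 0.06 and -0.07 for the transcription factors and 0.12, 0.11, 0.06 and 0.05 for the precursor genes.

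Markers of tissue next to the hippocampus were also higher, by their median, in BTBR replicates 1 and 2 than in 3 and 4. The leading array differed. BTBR replicate 1 was the highest array for 16 of 17 thalamus and 10 of 12 choroid plexus genes, against 3166 of 18398 tested genes. BTBR replicate 2 was highest for 9 of 9 striatum genes and 20 of 22 genes of myelin and mature cells, against 19.1%. Choroid plexus genes (12 of 13 listed were tested) deviated from the B6 mean by a median of 1.39, 1.18, -0.63 and -0.51 in BTBR replicates 1 to 4, and by -0.25, 0.46, 0.56 and -0.66 in the B6 replicates. For thalamus genes (17 of 18) the deviations were 2.80, 0.58, -0.23 and 0.09 in BTBR and between -0.03 and 0.11 in B6 mice. For striatum genes (9 of 10) they were 0.81, 2.97, -0.35 and -0.62 in BTBR mice and 1.53 in B6 replicate 2, with the other B6 arrays between -0.61 and -0.33. Summed intensities, again divided by 1000, ran from 26.5 to 30.6 in B6 and from 24.5 to 184 in BTBR mice for thalamus, from 27.5 to 142 and from 21.6 to 352 for striatum, and from 19.8 to 54.6 and from 24.5 to 102 for choroid plexus. Limma called 0 genes of these 3 lists between the strains (1, a choroid plexus gene, had an unadjusted p under 0.05), and the rank product called 4 of the thalamus, 2 of the striatum and 1 of the choroid plexus genes, where it called 4.34% of all tested genes. Within slide 1, where the members were called, limma called 2 of 17 thalamus genes (Synpo2 with 3.12 and Zic1 with 2.26), 2 of 12 choroid plexus genes (Sostdc1 with 2.68 and Otx2 with 1.27) and 0 of 9 striatum genes higher in BTBR, against 3.98% of all tested genes. B6 replicate 2, with the high striatum markers, had ordinary myelin values (median deviation -0.06). Markers of neurons (14 of 14 tested) and astrocytes (15 of 15) stayed within 0.09 of the B6 mean on all 8 arrays by their median, but single genes of both lists did not. The astrocyte filament gene Gfap was lower in BTBR on both slides, by -1.37 and -1.23 (limma adjusted p = 5.1e-04 and 8.1e-04). Ntsr2 and Acsbg1, also of the astrocyte list, were higher over all arrays (0.35 and 0.41, limma adjusted p = 0.016 and 0.022). On slide 1 limma called 1 of the 15 astrocyte genes higher (Acsbg1) and 1 lower (Gfap). Within slide 1 limma called 2 of the 14 neuron genes lower in BTBR and 0 higher, where it called 5.29% of all tested genes lower. They were Camk2a, a kinase of excitatory neurons (-0.84, limma adjusted p = 0.016, with -0.02 on slide 2), and Nefl, a neurofilament (-0.62, adjusted p = 0.023, with -0.69 on slide 2). Without B6 replicate 2 and BTBR replicates 1 and 2, the arrays that stood apart in thalamus or striatum markers, limma called 0 member probes. This setting was chosen after the values had been seen, and it leaves BTBR mice of slide 2 alone, so that it largely repeats the slide 2 comparison. The median difference was then -0.24 for the genes of myelin and mature cells, -0.09 for the transcription factors and 0.05 for the precursor genes. The part of neighboring tissue in the myelin values was not tested.

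**Figure D4:**
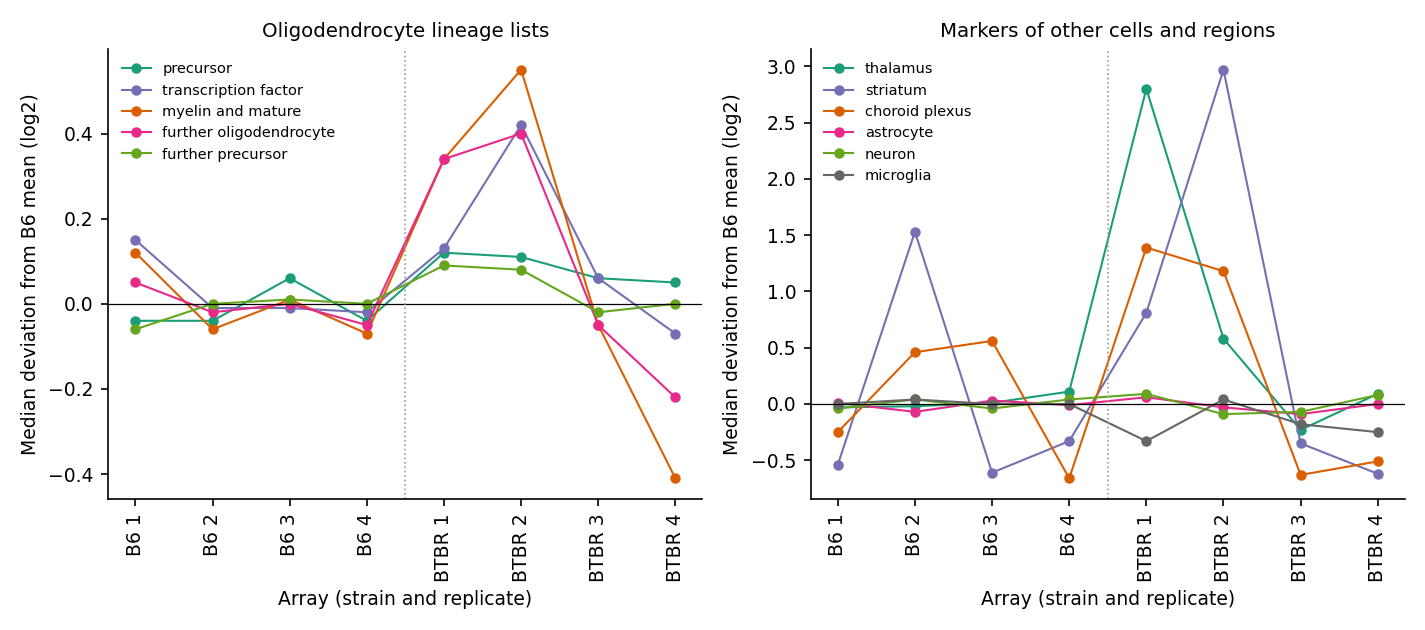
Median deviation from the B6 mean (log2, vertical axis) on each of the 8 arrays for the oligodendrocyte lineage lists (left) and for markers of other cells and regions (right); lines join the points of a list and imply no order among replicates. The myelin and mature genes run from 0.55 in BTBR replicate 2 to -0.41 in BTBR replicate 4 while the precursor genes stay between -0.04 and 0.12, and thalamus, striatum and choroid plexus markers are high in BTBR replicates 1 and 2.

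Bcas1 and the brightest Mobp probe lay highest against the other myelin genes. In contrast to the members that turned between slides, both Bcas1 probes were higher on both, by 1.02 and 1.04 on slide 1 and by 0.36 and 0.30 on slide 2 (limma adjusted p = 0.62 and 0.70 on the latter). When the median deviation of the myelin and mature genes of each array was subtracted, a step added after the values had been seen and given with no test, Bcas1 measured 0.53, 0.76, 0.49 and 0.47 above the B6 mean in BTBR replicates 1 to 4 at its brighter probe, and the B6 arrays lay between -0.15 and 0.12. The SD of that probe among BTBR mice was 0.54 as measured and 0.13 after this step. Since the step centers the members on the myelin genes, small differences after it carry no information. At their brightest probes Mobp (0.63) and Ugt8a (0.27) were also high, and Trf (-0.34) and Opalin (-0.43) were low. The Opalin value rested on BTBR replicate 3, with -0.48, -0.09, -1.19 and 0.03 in BTBR replicates 1 to 4, and its difference as measured was -0.02 without that array. Among the other precursor genes the SD in BTBR mice was larger after the step, 0.41 against 0.11 for Pdgfra, 0.39 against 0.08 for Cspg4 and 0.43 against 0.03 for Gpr17. These genes varied little among the BTBR mice as measured, so the subtraction itself gave them the spread of the myelin genes.

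Mobp, whose products sit in compact myelin and differ by alternative splicing, was measured by 3 probes that disagreed. The probes fall along the gene on chromosome 9 of mm9, the build of the array files, and were designed to different transcripts (NM_001039365, NM_008614 and ENSMUST00000174193 in this order). The first 30 of the 60 bases of each are given to show that they read separate stretches, beside those of the Bcas1 probes, which gave like values.
Mobp probe A_51_P291224, chr9:120077006-120077065, plus strand: acccttcaccttcctcaactccaagcgtga
Mobp probe A_52_P267600, chr9:120084777-120084836, plus strand: atggaaatggggaaaaaggaaacaagagag
Mobp probe A_52_P384465, chr9:120090501-120090560, plus strand: cgtcactgagtcgcgttgtaatcaccacgt
Bcas1 probe A_51_P433192, chr2:170173478-170173537, minus strand: ctccatctactgtccagacccacactgtgt
Bcas1 probe A_51_P433194, chr2:170172989-170173048, minus strand: ttcaaatagggtccttggaagttatcagtg
The brightest Mobp probe, A_52_P384465, measured 14.18, 13.94, 14.15 and 13.95 in B6 and 14.87, 15.50, 14.60 and 14.15 in BTBR mice. It was above every B6 array in 3 of 4 BTBR mice and differed by 0.72 (standard error 0.24, limma adjusted p = 0.13), a ratio of 1.65, with 1.12 on slide 1 and 0.33 on slide 2. Probe A_51_P291224 measured 13.25, 12.98, 13.28 and 13.16 in B6 and 13.49, 13.76, 13.05 and 12.41 in BTBR mice, which is the order of the other myelin genes, and differed by 0.01 (limma adjusted p = 0.99). Probe A_52_P267600 measured 11.53, 11.45, 11.27 and 11.20 in B6 and 11.40, 11.62, 10.76 and 10.08 in BTBR mice and differed by -0.40 (standard error 0.30, limma adjusted p = 0.56). All 3 were highest in BTBR replicate 2 and lowest, among BTBR mice, in replicate 4, but they lay at different heights against B6. Relative to the myelin and mature genes on the same array, the BTBR mice were between 0.49 and 0.89 above the B6 mean at A_52_P384465 and between -0.86 and -0.29 at A_52_P267600.

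Mbp also had a probe that went its own way. At A_52_P604195, designed to another Mbp transcript (NM_001025245) than the brightest probe (NM_010777), B6 mice measured 14.46, 14.34, 14.64 and 14.47 and BTBR mice 13.99, 14.27, 13.48 and 14.08. Among the member probes, BTBR and B6 arrays were fully separated at this one alone, as they were at 14.2% of all tested probes. The difference was -0.52 (standard error 0.16, limma adjusted p = 0.09), and the exact two-sided permutation test gave p = 0.0286, the smallest that 4 arrays against 4 allow. It was lower in BTBR on both slides, by -0.27 and -0.77. The remaining Mbp probe, A_52_P329451, differed by 0.25 (limma adjusted p = 0.64) and had the order of the other myelin genes, with 15.01, 15.35, 14.79 and 14.11 in BTBR mice. Among the 16 members with more than 1 tested probe, the differences of the probes spanned over 0.5 in Mobp and Mbp alone.

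**Figure D5:**
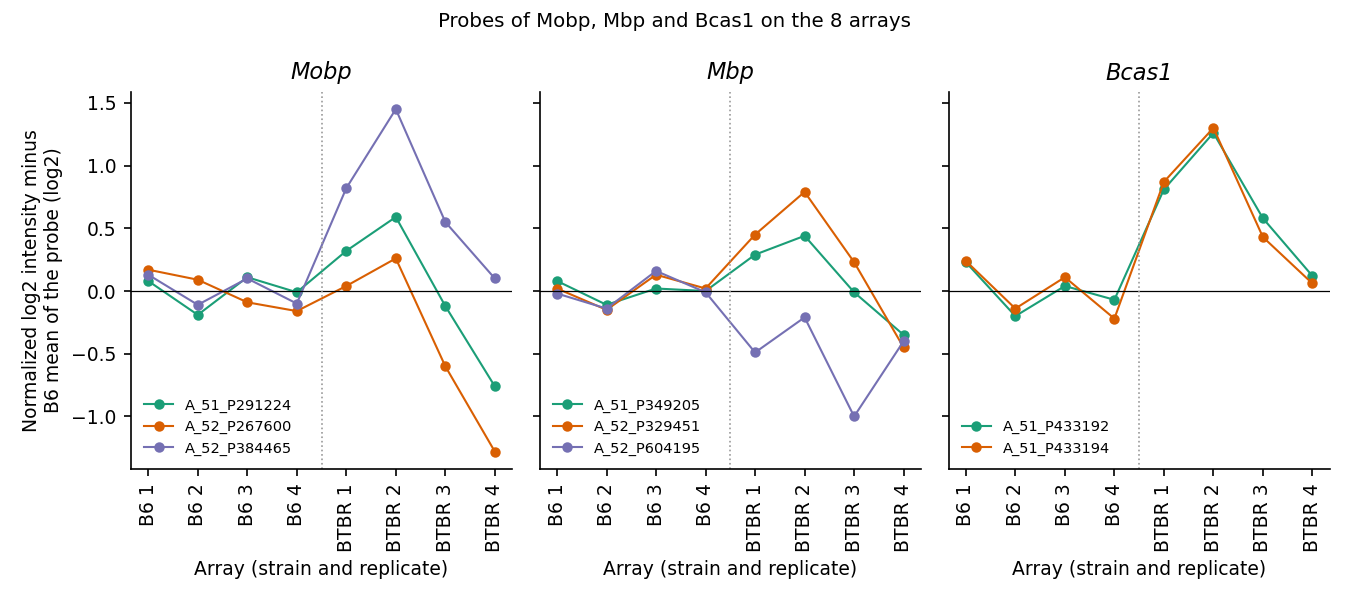
Each tested probe of Mobp, Mbp and Bcas1 on the 8 arrays, as normalized log2 intensity minus the B6 mean of the probe (vertical axis); lines join the points of a probe and imply no order among replicates. The B6 points of all probes stay within 0.24 of 0, the probes of Mobp separate from each other in the BTBR mice, and the 2 Bcas1 probes run together. Mbp probe A_52_P604195 lies below the other Mbp probes in BTBR replicates 1 to 3 and among them in replicate 4.

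Promoters of the members were searched for the letters that factors of the lineage are known to prefer. The RefSeq table of GRCm38.p6 held 25 promoters of 19 of the 31 members, and the 250 bases before the transcription start were searched on both strands for ACAANG, the core of a SOX site (CNTTGT on the other strand), and for CTGGNAC, a form of the MYRF site (GTNCCAG on the other strand). SOX letters were present in 15 of the 25 promoters (60%), against 36.3% of 32851 promoters in the table, and MYRF letters in 6 (24%), against 16.1%. Promoters of a gene can overlap, and Gjb1 had 4, Mag 3 and Tspan2 2. Counted by gene, SOX letters were present in 12 of 19 members (63.2%), against 39.9% of 27025 genes, and MYRF letters in 4 (21.1%), against 17.9%. No SOX match overlapped a MYRF match in these promoters. The promoters of 4 myelin genes and of the precursor gene Pdgfra are given because Mag, Mog and Cnp split the BTBR mice by slide, Mobp had the largest difference among the myelin genes and Pdgfra was level. For Mag the first promoter in the table is shown. Capitals mark the matched letters.
Mobp promoter, chr9:120149492-120149741, plus strand: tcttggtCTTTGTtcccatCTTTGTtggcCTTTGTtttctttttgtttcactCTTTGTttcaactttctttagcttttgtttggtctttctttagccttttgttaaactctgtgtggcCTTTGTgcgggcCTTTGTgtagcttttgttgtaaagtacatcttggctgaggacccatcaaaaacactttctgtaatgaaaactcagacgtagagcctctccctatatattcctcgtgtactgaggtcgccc
Mag promoter, chr7:30914864-30915113, minus strand: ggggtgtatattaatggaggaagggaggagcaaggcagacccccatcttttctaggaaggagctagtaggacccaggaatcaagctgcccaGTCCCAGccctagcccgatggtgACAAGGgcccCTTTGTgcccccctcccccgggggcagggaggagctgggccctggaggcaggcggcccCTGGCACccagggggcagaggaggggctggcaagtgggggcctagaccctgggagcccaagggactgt
Mog promoter, chr17:37023399-37023648, minus strand: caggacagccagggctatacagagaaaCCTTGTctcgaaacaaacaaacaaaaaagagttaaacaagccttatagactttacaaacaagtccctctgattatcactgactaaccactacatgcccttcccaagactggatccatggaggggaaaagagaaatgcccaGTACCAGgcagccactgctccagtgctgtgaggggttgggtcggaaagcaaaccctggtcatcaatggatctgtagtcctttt
Cnp promoter, chr11:100574689-100574938, plus strand: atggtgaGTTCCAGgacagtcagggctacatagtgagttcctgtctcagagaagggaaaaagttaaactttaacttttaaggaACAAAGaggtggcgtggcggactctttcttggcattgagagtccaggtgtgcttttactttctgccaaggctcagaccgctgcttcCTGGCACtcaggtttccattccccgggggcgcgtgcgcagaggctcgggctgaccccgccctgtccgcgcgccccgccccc
Pdgfra promoter, chr5:75152001-75152250, plus strand: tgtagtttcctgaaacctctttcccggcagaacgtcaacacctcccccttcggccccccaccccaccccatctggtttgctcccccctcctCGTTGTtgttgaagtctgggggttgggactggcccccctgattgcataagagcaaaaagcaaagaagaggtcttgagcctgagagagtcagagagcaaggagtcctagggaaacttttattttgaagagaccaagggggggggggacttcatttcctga
Mobp held 6 SOX matches between 243 and 120 bases before the start and no MYRF match. The Mag promoter shown held 2 matches of each kind, which the second Mag promoter shares by overlap, and the other Mag promoter held 1 SOX match. Cnp held 1 SOX and 2 MYRF matches, and Mog 1 of each. Pdgfra held 1 SOX match. Matches of so few letters are a description of the sequence, and binding was not measured.

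Further genes of the lineage were taken from lists written from general knowledge. Of 60 further oligodendrocyte genes 57 were tested, 40 were higher and 17 lower in BTBR, and the median difference was 0.10. On slide 1, 46 were higher (median 0.35) and limma called 18 higher and 1 lower, where it called 3.98% of all tested genes higher and 5.29% lower. On slide 2, 16 were higher (median -0.10) and 4 were called, against 3.75% of all tested genes. The turn from higher on slide 1 to lower on slide 2 was found in 31 of the 57, against 22.8% of all tested genes. Klk6, a protease of oligodendrocytes, was called in both directions, with 1.05 on slide 1 and -1.12 on slide 2 (limma adjusted p = 0.029 and 0.037), and Prr18 was lower on both, by -0.46 and -1.01 (adjusted p = 0.16 and 0.024). These 2 genes were chosen after their values were seen. Over all arrays limma called 2 of the 57 further oligodendrocyte genes, 1 in each direction, where 7.82% of all tested genes were called. Padi2, an enzyme that citrullinates myelin basic protein, measured 12.22, 11.98, 12.22 and 12.30 in B6 and 13.30, 13.42, 12.99 and 12.94 in BTBR mice. All BTBR arrays were above all B6 arrays, and Padi2 rose by 0.98 (standard error 0.12, limma adjusted p = 0.0011), with 1.26 on slide 1 and 0.71 on slide 2. Galc, the lysosomal enzyme that degrades galactocerebroside, fell from 10.94, 10.41, 10.51 and 10.40 in B6 to 9.14, 9.20, 9.66 and 9.20 in BTBR mice at its brightest probe, a difference of -1.27 (standard error 0.15, limma adjusted p = 9.0e-04). The other Galc probes differed by -0.60 (adjusted p = 2.7e-04) and 0.33 (adjusted p = 0.039), so that the probes of this gene were called in opposite directions.

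Of 30 further precursor genes 29 were tested, 19 were higher and 10 lower, with a median difference of 0.04 (0.11 on slide 1 and -0.01 on slide 2), and 8 of the 29 turned from higher on slide 1 to lower on slide 2. Limma called 3 of them over all arrays, where it called 7.82% of all tested genes. Rlbp1, a retinoid carrier found in precursors and astrocytes, measured 10.91, 10.88, 10.90 and 10.72 in B6 and 8.10, 8.10, 7.98 and 8.05 in BTBR mice, without overlap, and fell by 2.80 (standard error 0.07, limma adjusted p = 4.6e-08). The flag for signal above background was missing on 1 of the 4 BTBR arrays, so the BTBR level is near the limit of detection. Ccnd1, a cyclin of dividing cells, fell by 1.05 (limma adjusted p = 4.1e-04), and Sox11, a factor of immature neural cells, rose by 0.53 (adjusted p = 0.0052). Each of the 3 kept its direction on both slides. The peripheral glia marker Pmp2 was not well above background, and limma called 0 of the 6 Schwann cell genes tested (0 at an unadjusted p under 0.05, and 0 by the rank product), where the median difference was 0.09. Of 10 pericyte and fibroblast genes limma called 0 (1 at an unadjusted p under 0.05, and 0 by the rank product), and their median difference was 0.06. Against the same 7.82%, of 14 microglia genes limma called 1 higher and 5 lower, with a median difference of -0.17, of 15 astrocyte genes 2 higher and 1 lower, with a median of -0.02, and of 14 neuron genes 0 higher and 1 lower, with a median of 0.03.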

How the data were processed

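Arrays of 4 BTBR and 4 B6 hippocampi were grouped by the strain in their titles, and slides were taken from the file headers. Spot intensity, local background and flags of 0 or 1 were used as the authors deposited them. Per the file headers, Feature Extraction 10.7.3.1 read the Cy3 signal, and the arrays were not scaled to each other. The deposited log2 matrix was made by the authors with Agi4x44PreProcess defaults, quantile normalization and the median of replicate spots. Its scale and centring match these steps (column medians 8.82 or 8.83), but its signal column and offset are not stated. Members, lists, tests and alternatives were chosen with earlier results of these data known.

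Local background was subtracted from mean intensity (minimum 0.5), an offset of 50 was added, and quantile normalization over 8 arrays followed on the log2 scale. Control spots were left out, as were 154 probes that an outlier flag marked, and replicate spots were given by their median. Limma 3.58.1 (R 4.3.3) fitted strain alone to all 27981 tested probes, with Benjamini-Hochberg adjusted p under 0.05 called, and strain by slide with the spread pooled. The rank product used 16 pairs of arrays and 100 permutations of probes within arrays. Single values were compared with the exact permutation test over 70 assignments of arrays. Limma and the rank product were tested on simulated data, and the other steps were not. Values on every array are given for called members, for members with opposite slide differences of which one passed, and for Mbp, Mog, Mag, Mobp, Cnp, Olig1, Olig2, Sox10, Pdgfra, Cspg4 and Gpr17. Other members are given by differences. Of the other lists, genes called by limma over all arrays are named for the further oligodendrocyte and precursor lists, and the others are given by counts, with some markers by name. The values of Enpp2 and Trf, the subtraction of the myelin median and the setting without 3 arrays were chosen after their values were seen. Alternatives were the processed signal minus its 75th percentile, normexp, the deposited matrix, median centring, other filters, flags kept, the median over probes, replicate or slide as a block, eBayes with trend and robust options, other thresholds, other memberships and each array left out. Probe positions are on mm9, promoters are from RefSeq (GRCm38.p6), and not every list member is named.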

Additional observations from a re-analysis of the deposited data

Results flagged for a closer look

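Each tested member probe was examined in each strain for an array far from the other 3, with Dixon's ratio of the gap to the range and its 95% critical value for 4 arrays. Of 100 groups examined 5 passed it, and chance flags about 1 in 20. In BTBR mice, Pdgfra was lowest in replicate 3 at 11.67, with the next array at 11.87 (ratio 0.927), and Gpr17 was highest in the same replicate at 13.47, with the next at 13.42 (ratio 0.935). In B6 mice, Mog was highest in replicate 1 at 10.61, with the next at 10.37 (ratio 0.916). Trf was lowest in B6 replicate 4 at 14.22, with the next at 14.41 (ratio 0.893). A Sirt2 probe was lowest in B6 replicate 2 at 14.86, with the next at 14.98 (ratio 0.873). The spread of the myelin genes among BTBR mice did not appear here, because their 4 values were spread out rather than led by 1 array.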

How the results depend on the processing

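Limma called 0 member probes under every processing alternative, with the slide as a block and with the replicate block, and 1 at an adjusted p under 0.1. With 1 array left out it called 0 to 3. The rank product count of 1 became 0 with the processed signal, median centring, the median over probes, a pfp of 0.01 or less and without the 3 arrays that stood apart. It became 2 with normexp or no filter on dim probes and 3 with the deposited matrix or a pfp of 0.1 or less, and ranged from 0 to 2 with 1 array left out. The 12 probes called on slide 1 became 5 with the processed signal and 7 genes with the median over probes, and ranged from 2 to 12 with 1 array left out. On slide 2 the count was 2 with median centring and 0 to 2 with 1 array left out. The median difference of the precursor genes was 0.03 with median centring or the median over probes, 0.00 with Bcas1 counted among the myelin genes, and from 0.04 to 0.11 with 1 array left out. For the transcription factors it was 0.04 with median centring and ranged from 0.00 to 0.23 with 1 array left out. For the myelin and mature genes it was 0.06 with median centring and ranged from -0.04 to 0.25. Without the 3 arrays the medians of these groups were -0.09 and -0.24. Cnp (-0.03) and Mag (-0.02) turned with median centring, Myrf with the processed signal (0.01) and the median over probes (0.03), and Tspan2 with the latter (0.06). With 1 array left out, these 15 genes turned: Ninj2 (-0.22 to 0.13), Myrf (-0.08 to 0.07), Cnp (-0.13 to 0.23), Sox10 (-0.04 to 0.24), Mag (-0.14 to 0.24), Aspa (-0.05 to 0.30), Mbp (-0.02 to 0.24), Nkx6-2 (-0.09 to 0.31), Cldn11 (-0.07 to 0.36), Gjc3 (-0.01 to 0.24), Fa2h (-0.05 to 0.33), Evi2a (-0.10 to 0.28), Ermn (-0.23 to 0.05), Trf (-0.41 to 0.03) and Tspan2 (-0.25 to 0.08). The causes were not tested. Pdgfra, at 0.00, had no direction: it was -0.05 with median centring, 0.01 with the processed signal and 0.05 with the deposited matrix, and ran from -0.03 to 0.05 with 1 array left out. The other 15 genes did not change sign under the alternatives run, but several came close to 0 with 1 array left out: Enpp2 (0.00 to 0.59), Car2 (0.01 to 0.27), Mog (0.02 to 0.36), Mal (0.03 to 0.37), Cryab (0.07 to 0.40) and Opalin (-0.59 to -0.02). Mobp fell from 0.72 to 0.01 with the median over probes. Samples with the same replicate number correlated in their deviations by -0.14, 0.51, -0.10 and 0.39, so the numbers were not taken as pairs, and the replicate block left the limma count at 0. All scalings moved the median of all probes by 0.03 or less. Signal limits Myrf and the second Gpr17 probe, which were not well above background on every array, and 4 arrays per strain limit all members.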
